A study of Mus musculus with 5 samples.

Results

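Potassium channel genes were followed in group 3 innate lymphoid cells (ILC3) and in CD4 T cells of the mouse. The genes were taken by name: a symbol beginning with Kcn, then a letter and a digit, or Kcnip or Kcnmb and a digit. The pattern took 93 of the 27179 gene identifiers in the count table, 89 of them protein-coding and 4 noncoding genes named after a channel gene. The ILC3 group held 3 libraries of cells sorted as CD45+CD3-RORγtGFP+CD127+, and the CD4 T group 2 libraries of cells sorted as CD45+CD3+CD4+. All were given as from wild type C57BL/6 mice. The series gives 3 mice as the source and does not tie libraries to mice, so p-values reflect how far these 5 libraries scatter, part of which may be technical. RORγtGFP is a fluorescent reporter of the ILC3 lineage factor, which some T cells also use. The series title names the intestine, but the sources used here do not give the tissue of each library or the age of the mice, nor whether the CD4 T cells came from reporter mice. The ILC3 sort required cells that carried the reporter, so the groups may differ in this genotype.

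Potassium channels let potassium leave the cell and so keep the inside of the membrane negative. In lymphocytes this voltage drives calcium in through the Orai1 channel after receptor stimulation. The voltage-gated channel Kcna3 and the calcium-activated channel Kcnn4 are the best known of them in T cells, while tandem-pore leak channels (Kcnk) set the resting voltage and inward rectifiers (Kcnj) are best known from glia, kidney and heart. Accessory subunits (Kcne, Kcnmb, Kcnip) alter how the pores open.

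The promoter windows of the 2 genes called different between the groups are shown for context. Each holds the 250 bases before a transcript start in RefSeq on the plus strand of GRCm38.p6. The Kcnk1 window is chr8:125994852-125995101, and the RefSeq span of the gene begins further upstream, at 125993655. The Kcnj10 window is chr1:172340960-172341209. Capitals mark the single match to the motifs searched.
Kcnk1: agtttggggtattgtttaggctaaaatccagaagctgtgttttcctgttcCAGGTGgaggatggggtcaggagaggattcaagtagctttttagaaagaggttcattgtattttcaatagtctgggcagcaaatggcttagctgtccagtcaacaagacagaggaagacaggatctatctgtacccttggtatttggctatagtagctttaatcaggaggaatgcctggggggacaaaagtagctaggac
Kcnj10: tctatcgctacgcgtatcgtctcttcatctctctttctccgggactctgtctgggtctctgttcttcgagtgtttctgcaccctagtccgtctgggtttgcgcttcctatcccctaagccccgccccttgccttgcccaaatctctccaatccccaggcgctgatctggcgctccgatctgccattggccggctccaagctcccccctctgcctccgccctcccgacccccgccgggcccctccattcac
Both strands were searched for AGGTCA, the core motif of ROR factors, TGANTCA, the AP-1 site, and CAGGTG, an E-box of E proteins. The match was CAGGTG in the Kcnk1 window, beginning 200 bases before the start, and it overlapped no other motif. Of 32807 windows of the same length, 17.2% held CAGGTG, 14.0% AGGTCA and 6.75% TGANTCA. The Kcnk1 window had 44.4% G and C with 0 CpG dinucleotides, the Kcnj10 window 62% with 17, and the median window 52.4% with 6. The Kcnk1 window lies inside the gene span and the Kcnj10 window just before it, so their base compositions are not those of like positions. Which Kcnk1 start these cells used was not tested.

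The libraries held 15123715 to 25956023 counts, 6.55% to 29.8% of them from antigen receptor segment genes. Values are counts per 1000000 counts (CPM) on library sizes scaled by TMM, and a count of 0 allows up to 3 counts, or 0.108 to 0.192 CPM. Of 10 ILC3 markers, 8 were called higher in ILC3 and 2 were not called. Of 9 T cell markers, 5 were called lower in ILC3, but Cd3e, Cd3g and Lat overlapped between the groups. Cd4, used in the sort, had 6.28, 2.82 and 6.08 CPM in ILC3 and 142 and 90.05 CPM in CD4 T. Libraries of both groups also held transcripts known from other cells. Plasmacytoid dendritic cell markers summed to 254 to 665 CPM in ILC3 and 4165 to 4957 CPM in CD4 T. Macrophage and monocyte markers summed to 117 to 161 CPM in ILC3 and 1565 to 2168 CPM in CD4 T. Conventional dendritic cell markers summed to 47.0 to 78.4 CPM in ILC3 and 454 to 471 CPM in CD4 T. Of these 6 conventional markers, 3 were called lower in ILC3, 1 higher and 2 were not called. The higher one, Zbtb46, had 36.4, 20.9 and 44.1 CPM in ILC3 and 1.51 and 1.25 CPM in CD4 T. Xcr1, not called, was also higher in every ILC3 library than in either CD4 T library. NK cell and ILC1 markers summed to 49.2 to 112 CPM in ILC3 and 2070 to 3210 CPM in CD4 T. Nearly all of the CD4 T sums was Gzma, at 2065 and 3200 CPM. Klrb1c of the same list went the other way, at 60.5, 83.3 and 30.9 CPM in ILC3 and 0.0396 and 4.49 CPM in CD4 T. B and plasma cell markers, nearly all Jchain, summed to 18104, 100877 and 82615 CPM in ILC3. In CD4 T they summed to 34656 and 21338 CPM, so the groups overlapped. The part of such other cells in the differences described here was not tested, and ILC3 and CD4 T are used as the labels of the libraries. In such bulk libraries, fewer cells that hold a transcript and less of it per cell cannot be told apart.

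Most potassium channel genes had few or no counts in either group. No library held a count of 33 of the 93 genes, and 29 had counts in 1 library alone. The share with a count in some library was 64.5%, beside 65.6% of all genes in the table, while 22.6% passed the count filter of the test, beside 46.9% of all genes. With detection set at 1 CPM or more in every library of a group, 7 genes were detected in ILC3, 8 in CD4 T, 4 in both and 11 in at least one of the groups. These are 7.53% of the genes in ILC3 and 8.60% in CD4 T, where 33.1% and 36.7% of all genes in the table met the same limit in ILC3 and CD4 T. The 4 genes detected in both were Kcnn4, the Kv channel-interacting protein gene Kcnip3, and the noncoding genes Kcnq1ot1 and Kcnmb4os2. The genes detected in ILC3 and not in CD4 T were Kcnk1, the voltage-gated channel gene Kcnc1 and the BK channel subunit gene Kcnmb4. Those detected in CD4 T and not in ILC3 were the inward rectifiers Kcnj10 and Kcnj16 and the leak channels Kcnk5 and Kcnk6.

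By family, 26 of 40 voltage-gated genes had a count in some library, but 6 passed the filter on low counts of the test and 1, Kcnc1, was detected. Among the leak channels 9 of 14 had a count and 5 passed. Of 15 inward rectifiers 9 had a count and 2 passed. All 4 Kcnn genes had a count, and Kcnn4 alone passed. None of the 3 Kcnt and Kcnu genes had a count. Of the accessory genes, 1 of 5 Kcne, 2 of 4 Kcnmb and 2 of 4 Kcnip genes passed, as did 2 of the 4 noncoding genes. In all 21 of the 93 genes passed. A gene high in a single group can pass through that group alone, so these 21 do not stand for all 93.

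**Figure D1:**
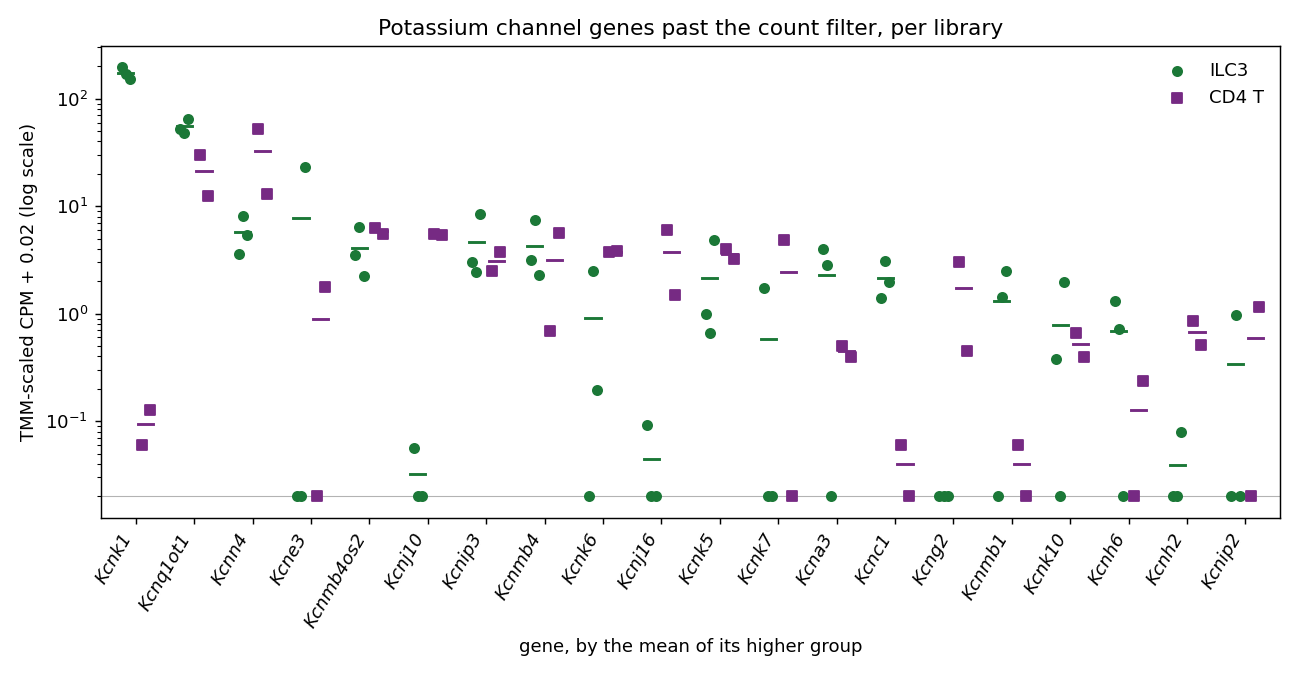
TMM-scaled CPM plus 0.02 on a log axis for 20 of the 21 genes that passed the count filter. Circles are the 3 ILC3 libraries, squares the 2 CD4 T libraries and bars the group means; points on the grey line had no count. Kcnk1 stood at 152 to 195 CPM in ILC3 and at 0.0396 and 0.108 CPM in CD4 T.

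Across the transcriptome 13.7% of the 12747 genes tested were called (edgeR quasi-likelihood test, Benjamini-Hochberg adjusted p under 0.05), 6.46% higher and 7.21% lower in ILC3. The higher calls were 47.3% of these calls, and 20.4% with library size in place of TMM, where the median log2 difference of all genes moved to -0.60. Of the 21 potassium channel genes tested, 1 was called higher in ILC3 (Kcnk1), 1 lower (Kcnj10) and 19 were not called. At an unadjusted p under 0.05 there were 9 of the 21, beside 33.4% of all genes tested. The groups did not overlap for 3 genes higher in ILC3 and 7 lower, beside 25.5% and 29.6% of all genes tested, or 55.0% in either direction. The median log2 difference of the 21 genes was -0.54 with fitted values for genes with no count in a group, and that of all genes tested -0.10.

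Kcnk1 was the dominant potassium channel transcript of ILC3 and nearly absent from CD4 T. It encodes a tandem-pore leak channel of the TWIK family. The gene (NCBI gene 16525, chromosome 8, 125993655 to 126030685, plus strand) had 195, 170 and 152 CPM in ILC3 replicates 1 to 3, against 0.0396 and 0.108 CPM in CD4 T replicates 1 and 2. In counts, the ILC3 libraries had 5416, 2647 and 2603 and the CD4 T libraries 1 and 2. Every ILC3 library was far above both CD4 T libraries, and the ILC3 libraries were close to each other, at 172 ± 21.8 CPM (SD, n = 3). Summed over libraries and divided by library size, Kcnk1 was 2571-fold higher in ILC3, and counting error alone gives an exact 95% interval of 879 to 12467. The difference passed in edgeR (adjusted p = 0.000602). Its adjusted p was 9.21e-10 to 0.00765 over the edgeR and limma-voom alternatives. The ratio rests on 3 CD4 T counts, and was 1630 when CD4 T replicate 1 was left out and 4453 when replicate 2 was. An antisense gene, Gm45875, shares 8.01% of the exon bases of Kcnk1, and no source used here gives the strand setting of the counting.

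Scaled by exon length, every ILC3 library had more Kcnk1 than any other detected potassium channel gene had in ILC3, at 77.1 ± 9.74 CPM per kb of exon (SD, n = 3). Next among the genes detected in ILC3 came Kcnmb4os2 at 2.00 ± 1.06, Kcnip3 at 1.30 ± 0.932, Kcnmb4 at 1.29 ± 0.830 and Kcnn4 at 1.11 ± 0.453 CPM per kb, whose ranges over the libraries overlapped. Kcnq1ot1, at 0.593 ± 0.097 CPM per kb in ILC3, overlapped Kcnip3, Kcnmb4 and Kcnn4 but not Kcnmb4os2, and Kcnc1, at 0.225 ± 0.0918, lay below them all. In CD4 T the order began with Kcnn4 at 6.32 ± 5.36 CPM per kb (SD, n = 2) and Kcnmb4os2 at 2.90 ± 0.277, which overlapped each other. Kcnk5, Kcnj10, Kcnj16, Kcnk6 and Kcnip3 followed, with means of 0.873 to 1.06 CPM per kb. Neighbours in this order overlapped, while the values of Kcnk6 lay below those of Kcnk5 and Kcnj10 and within the ranges of Kcnj16 and Kcnip3. Kcnq1ot1 was lowest at 0.227 ± 0.133. The order leaves out genes not detected in the group, of which some had higher means than genes in it. In ILC3 these included Kcne3, at a mean of 4.33 CPM per kb from replicate 3 alone, and Kcna3, at 1.19. In CD4 T, Kcnk7 had a mean of 1.53 CPM per kb from replicate 1 alone.

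**Figure D2:**
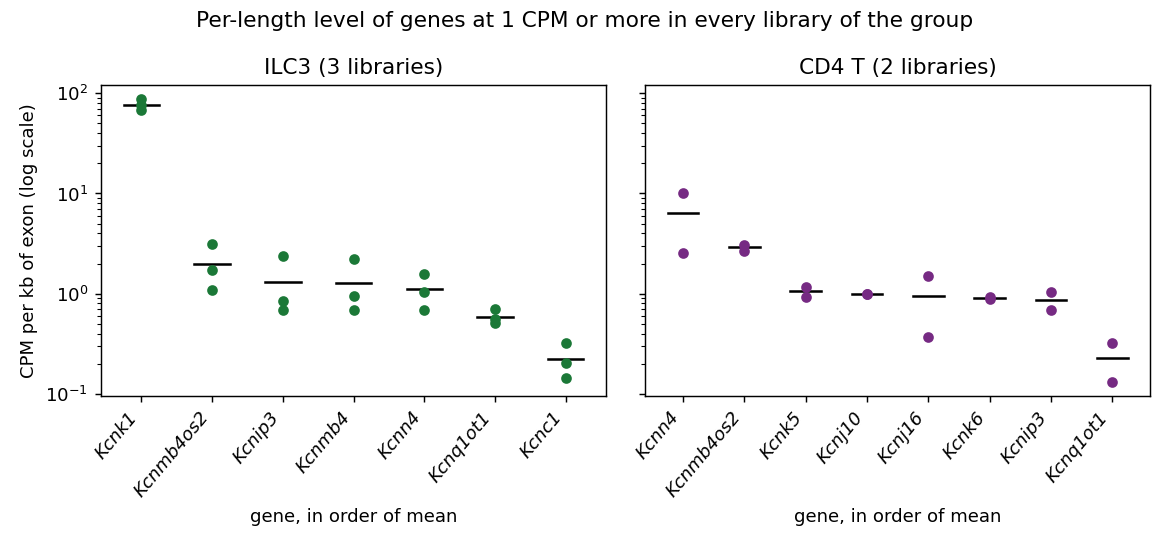
CPM per kb of exon on a log axis for the genes at 1 CPM or more in every library of ILC3 (left, 3 libraries) and of CD4 T (right, 2 libraries). Points are libraries and bars are means; Kcnk1 leads in ILC3 at 77.1 CPM per kb, and Kcnn4 in CD4 T at 6.32.

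The summed level of the coding potassium channel genes was higher in every ILC3 library than in either CD4 T library, and Kcnk1 made up most of it in ILC3. It was 216, 200.2 and 205 CPM in ILC3 replicates 1 to 3, against 90.2 and 45.9 CPM in CD4 T replicates 1 and 2. The share of Kcnk1 in it was 90.6%, 84.7% and 74.2% in ILC3, against 0.044% and 0.236% in CD4 T. Kcnn4 made up 1.64%, 4.06% and 2.62% in ILC3, against 57.4% and 28.2% in CD4 T. Without Kcnk1 and Kcnn4 the sums overlapped, at 16.6, 22.5 and 47.5 CPM in ILC3 and 38.4 and 32.9 CPM in CD4 T. Coding genes with at least 1 count numbered 16, 17 and 16 in the ILC3 libraries, against 42 and 27 in the CD4 T libraries. Many of those in CD4 T replicate 1 had a single count there. Of all genes in the table, 13337, 13484 and 12969 had a count in the ILC3 libraries, against 14458 and 14694 in the CD4 T libraries. The TMM-scaled sizes of the CD4 T libraries lay within the range of those of ILC3. At 1 CPM or more the numbers were 8, 8 and 10 in ILC3, against 9 and 11 in CD4 T.

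**Figure D3:**
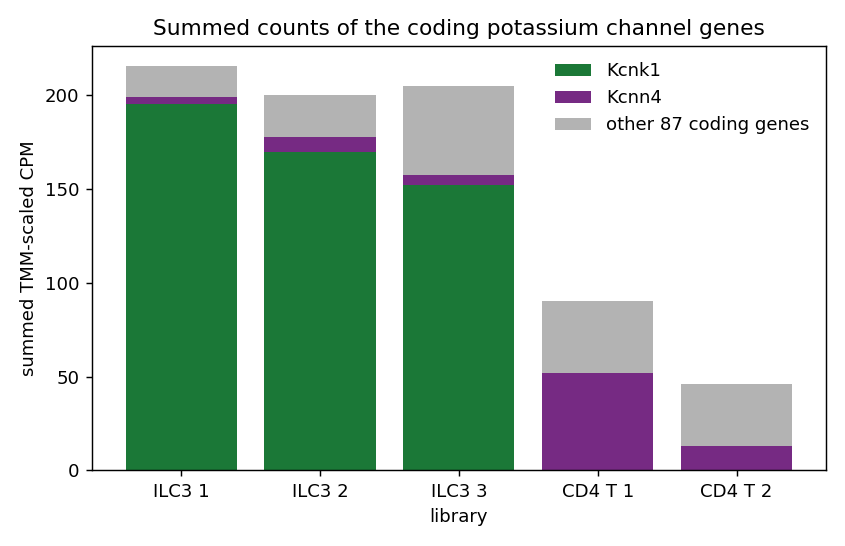
Summed TMM-scaled CPM of the 89 coding genes in each library, from 0, split into Kcnk1, Kcnn4 and the others. The ILC3 bars are mostly Kcnk1, and Kcnn4 takes 57.4% and 28.2% of the CD4 T bars.

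Among the inward rectifiers, Kcnj10 fell in ILC3. Its channel is best known for clearing potassium in glia. ILC3 replicates 1 to 3 had 0.0361, 0 and 0 CPM, from 1 count in all, against 5.43 and 5.36 CPM in CD4 T, from 137 and 99 counts (NCBI gene 16513, chromosome 1, 172341210 to 172374085). The CD4 T libraries were alike and no ILC3 library came near them. By sums Kcnj10 was 326-fold lower in ILC3, with an exact 95% interval of 58.0 to 12947 for counting error, and edgeR gave an adjusted p = 0.0215. Leaving out any ILC3 library (0.0659, 0.0654 and 0.0507 for replicates 1 to 3) or CD4 T replicate 1 (0.0873) ended the call. With ILC3 replicate 1 left out the group had no count, and Kcnj10 was at least 58.9-fold lower, against a floor of 3 counts over the group. Neuron and glia markers were near 0: 7 of them summed to 0.117 to 0.512 CPM in ILC3 and 0.0542 to 0.119 CPM in CD4 T, and Snap25, Tubb3 and Sox10 had no count in any library. Markers of some other cells, among them the plasmacytoid dendritic and the macrophage and monocyte lists given above, summed higher in CD4 T. The part of any of these cells in the Kcnj10 counts was not tested.

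Kcnj16, whose product pairs with that of Kcnj10 in one channel, had 0.0722, 0 and 0 CPM in ILC3, against 5.95 and 1.46 CPM in CD4 T. The groups did not overlap, and the ratio was 122-fold lower in ILC3 on 2 ILC3 counts (interval 33.4 to 1019), which narrowly did not pass (adjusted p = 0.052, edgeR). It passed with library size alone (0.0419), with receptor segment genes left out (0.0426), with no count filter (0.0374), with the CPM filter (0.0453), in limma-voom (0.038) and in DESeq2 (0.003). It did not pass when any 1 library was left out (0.0599 to 0.283 in edgeR), and the ratio was 44.2-fold without CD4 T replicate 1 and at least 44.2-fold without ILC3 replicate 1. Nearby on the same chromosomes, Kcnj9 beside Kcnj10 had at most 2 counts and Kcnj2 beside Kcnj16 at most 6 counts in any library. Of the other 13 inward rectifiers none passed the filter, and 6 had no count.

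Kcnn4, the calcium-activated channel of T cells that opens through bound calmodulin, was lower in each ILC3 library than in either CD4 T library. It had 3.54, 8.14 and 5.38 CPM in ILC3 and 51.7 and 12.9 CPM in CD4 T. The CD4 T libraries differed from each other more than the ILC3 libraries did. On the log2 scale the difference of -2.51 (SE 0.684) missed the threshold (adjusted p = 0.0555, edgeR). Leaving out CD4 T replicate 2 gave -3.18, which passed (0.0186), and leaving out CD4 T replicate 1 gave -1.18 (0.391). It also passed with library size alone (0.026), with receptor segment genes left out (0.0448), with no count filter (0.00956) and in DESeq2 (0.00506). Kcnn1, Kcnn2 and Kcnn3 had at most 3 counts in any library.

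Kcna3, the voltage-gated channel best known from T cells, was low in every library. It had 3.97, 2.82 and 0 CPM in ILC3, against 0.476 and 0.379 CPM in CD4 T. ILC3 replicate 3 was below both CD4 T libraries and the other ILC3 libraries above them, and the log2 difference of 2.39 (SE 2.05) did not pass (adjusted p = 0.465, edgeR). Its relatives Kcna1, Kcna4, Kcna5 and Kcna7 had no count, and Kcna2, Kcna6 and Kcna10 had at most 2.

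Kcnc1, a fast voltage-gated channel of rapidly firing neurons, had 1.37, 3.07 and 1.93 CPM in ILC3 and 0.0396 and 0 CPM in CD4 T. All ILC3 libraries were higher, with a ratio of 86.0 on 1 CD4 T count (interval 15.1 to 3427), or 49.7 without CD4 T replicate 2 and at least 12.1 without CD4 T replicate 1, but the difference did not pass in edgeR (adjusted p = 0.0629) and did in DESeq2 (0.0041). Kcng2, a silent modifier subunit, had no ILC3 count and 3.01 and 0.433 CPM in CD4 T, at least 38.7-fold lower in ILC3 (adjusted p = 0.0701 in edgeR and 0.0398 in DESeq2). Most of its counts, 76, were in CD4 T replicate 1, and the bound was 8.73-fold without that library, 60.7-fold without CD4 T replicate 2 and 21.0-fold without ILC3 replicate 1. Kcnh2, a channel that repolarizes the heart, had 0, 0 and 0.0585 CPM in ILC3 and 0.832 and 0.487 CPM in CD4 T (adjusted p = 0.109, edgeR). Kcnh6, a relative of Kcnh2, overlapped, at 1.30, 0.705 and 0 CPM in ILC3 and 0 and 0.217 CPM in CD4 T (adjusted p = 0.489, edgeR).

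The remaining leak channels overlapped or varied within a group. Kcnk5, an acid-sensitive channel, had 0.974, 0.641 and 4.79 CPM in ILC3 and 4.0 and 3.19 CPM in CD4 T (adjusted p = 0.707, edgeR). Kcnk6, another channel of the TWIK family, had 0, 2.50 and 0.175 CPM in ILC3 and 3.69 and 3.84 CPM in CD4 T. Its groups did not overlap, with the ILC3 values lower and spread from no count upward (log2 -2.08, SE 1.90, adjusted p = 0.492 by edgeR). Kcnk7, whose product gives no current on its own, was read in 1 library of each group, at 1.70 CPM in ILC3 replicate 1 and 4.80 CPM in CD4 T replicate 1. Kcnk10, a stretch- and lipid-gated channel, had 0.361, 0 and 1.93 CPM in ILC3 and 0.634 and 0.379 CPM in CD4 T. Kcnk7 and Kcnk10 did not pass (edgeR adjusted p = 0.638 and 0.867).

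None of the 5 accessory genes tested was called by edgeR, DESeq2 or limma-voom, with DESeq2 giving no adjusted p for Kcne3. Kcne3, which partners Kcnq1 in intestinal epithelium, had 0, 0 and 23.1 CPM in ILC3 replicates 1 to 3 and 0 and 1.73 CPM in CD4 T. A single ILC3 library thus held almost all of its counts (adjusted p = 0.534, edgeR). The same library was the highest for the mast cell markers Cpa3, with 7.07, 24.4 and 135 CPM in ILC3 and 0 and 0.65 CPM in CD4 T, and Mcpt4, with 21.2 CPM in ILC3 replicate 3 and no count elsewhere. Fcer1a likewise had 2.22 CPM there and no count elsewhere. Il1rl1 of the same list was not raised there, at 3.18, 2.24 and 2.98 CPM in ILC3 and 30.8 and 41.1 CPM in CD4 T. The 7 ILC2 and mast cell markers summed to 23.3, 45.0 and 186 CPM in ILC3 and 66.5 and 85.3 CPM in CD4 T. Epithelial markers summed to 7.50, 10.3 and 14.9 CPM in ILC3 and 24.1 and 48.2 CPM in CD4 T. The part of mast or epithelial cells in the Kcne3 counts was not tested.

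The BK channel subunit Kcnmb4 had 3.14, 7.43 and 2.28 CPM in ILC3 and 0.674 and 5.58 CPM in CD4 T (adjusted p = 0.824, edgeR). Its antisense partner Kcnmb4os2 had 3.50, 6.41 and 2.22 CPM in ILC3 and 6.26 and 5.47 CPM in CD4 T (adjusted p = 0.684, edgeR). They share 693 exon bases on opposite strands, 20.85% of those of Kcnmb4, so their reads cannot be told apart there. Kcnmb1, the smooth muscle subunit, had 0, 1.41 and 2.46 CPM in ILC3 and 0.0396 and 0 CPM in CD4 T (adjusted p = 0.204, edgeR). The smooth muscle actin gene Acta2 had 0.361, 40.7 and 4.56 CPM in ILC3 and 0.357 and 0.433 CPM in CD4 T. The ILC3 libraries with Kcnmb1 counts had more Acta2, but Acta2 was highest in replicate 2 and Kcnmb1 in replicate 3. Acta2 is 1 of 6 stromal and endothelial markers. The most counted of them in both groups, Pecam1, had 40.4, 30.6 and 35.9 CPM in ILC3 and 22.7 and 19.5 CPM in CD4 T. The part of such cells in the Kcnmb1 counts was not tested. The pore-forming partner of the BK channel subunits, Kcnma1, lies outside the name pattern and had at most 4 counts in any library.

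Kcnip3, also known as a calcium-binding repressor, had 2.99, 2.43 and 8.42 CPM in ILC3 and 2.46 and 3.74 CPM in CD4 T (adjusted p = 0.716, edgeR). Kcnip2 was read in ILC3 replicate 2 at 0.961 CPM and in CD4 T replicate 2 at 1.14 CPM, with no count in the other libraries (adjusted p = 0.858, edgeR). Kcnq1ot1, the long antisense RNA of the imprinted Kcnq1 locus, was the second most counted gene of the set in ILC3, with 52.5, 47.8 and 65.2 CPM there and 29.9 and 12.4 CPM in CD4 T. The groups did not overlap, but the log2 difference of 1.38 (SE 0.449) did not pass (adjusted p = 0.0827, edgeR). It was 0.88 with library size alone. It passed with no count filter (0.0414), in limma-voom (0.0495), in DESeq2 (0.0221) and without CD4 T replicate 1, at 2.16 (0.0388). Kcnq1 itself had no ILC3 count and 2 CD4 T counts.

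**Figure D4:**
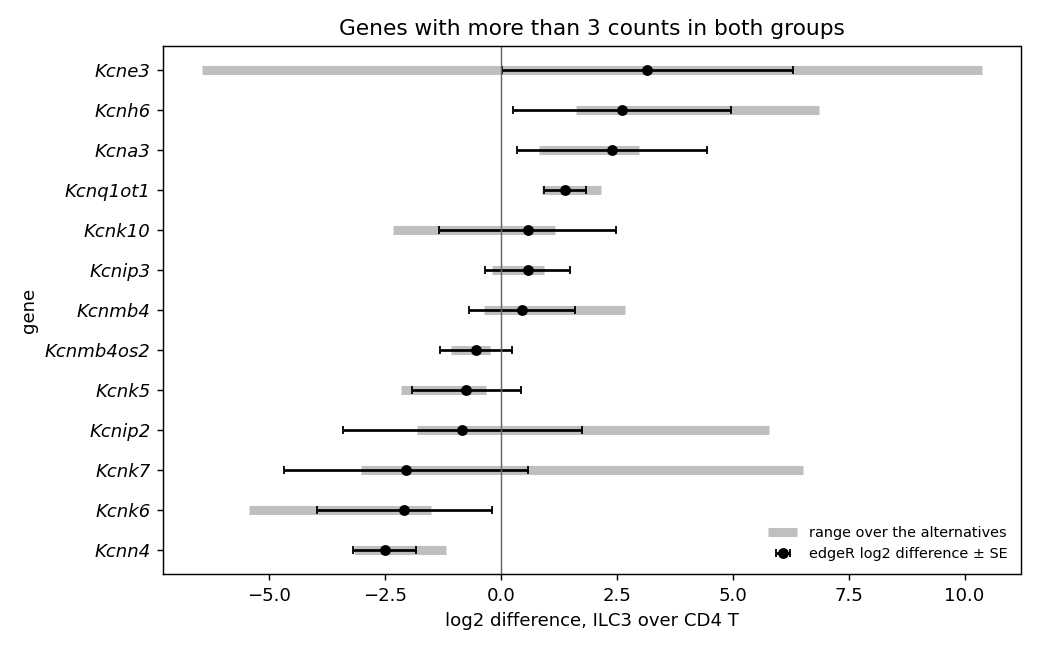
Log2 difference of ILC3 over CD4 T with its SE (black) for the genes with more than 3 counts in both groups, and the range over the alternative settings (grey). None of these genes was called; Kcnn4 lies at -2.51 and Kcnq1ot1 at 1.38.

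Of the 72 genes that did not pass the filter, 33 had no count, 34 had 1 to 9 counts at most in any library and 5 had 10 or more in some library. In each of those 5, most counts came from 1 library. Kcnq3, a channel of the neuronal M current, had 105 counts in CD4 T replicate 1 and none elsewhere, and Kcnf1, a silent modifier subunit, had 26 in CD4 T replicate 2 and none elsewhere. Kcnq5, a relative of Kcnq3, had 26 in CD4 T replicate 2 and 2 in ILC3 replicate 2. Kcnk3, an acid-sensitive leak channel, had 12, 0 and 26 counts in ILC3, against 6 and 0 in CD4 T, and Kcnmb3, a BK channel subunit, had 10 in ILC3 replicate 3 and 1 in CD4 T replicate 1. Of 15 potassium channel genes with a mean of 0.5 to 10 CPM over the 5 libraries, 11 (73.3%) had no count in at least 1 library, beside 2409 of 5929 (40.6%) of all genes in that range. No test was made of these shares.

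Genes that work with potassium channels were read from 4 lists. Of 17 partners and relatives outside the name pattern, 2 passed the filter, 1 was at an unadjusted p under 0.05 and 0 were called by edgeR, while DESeq2 and limma-voom each called 1 lower, Kcnab2. The most counted was Kcnab2, a beta subunit of voltage-gated channels, with 2.27, 4.68 and 4.38 CPM in ILC3 and 16.2 and 13.2 CPM in CD4 T (log2 -1.96, adjusted p = 0.072 by edgeR). All ILC3 libraries were below both CD4 T libraries. Of 8 genes that act on the Kcnn4 channel, 7 were tested, 2 were at an unadjusted p under 0.05 and 0 were called by edgeR. The median log2 difference of the 7 was 0.51. DESeq2 and limma-voom each called 2 higher, Calm2 and Phpt1. Over all 12747 genes tested, DESeq2 called 1914 higher and 1858 lower, and limma-voom 1317 and 1402. In edgeR, 33.4% of all genes tested were at an unadjusted p under 0.05 and 13.7% were called.

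In the calcium entry and release list, 1 of 18 tested genes was called higher in ILC3, 1 lower and 16 were not called. These counts stand beside 6.46% of all genes tested called higher and 7.21% lower. The median log2 difference of the 18 was -0.68. Itpr1, the store release channel opened by inositol trisphosphate, had 220, 308 and 417 CPM in ILC3 and 66.2 and 58.7 CPM in CD4 T, a difference of 2.33 on the log2 scale (SE 0.377, adjusted p = 0.0137, edgeR). Its adjusted p in edgeR was 0.0518 when CD4 T replicate 1 was left out. Trpm2, a cation channel of phagocytes and lymphocytes, had no count in ILC3 and 12.3 and 3.41 CPM in CD4 T, at least 172-fold lower in ILC3 (adjusted p = 0.0289, edgeR). Leaving out ILC3 replicate 1 (0.0654, bound 93.3-fold), ILC3 replicate 2 (0.0608) or CD4 T replicate 1 (0.184, bound 68.7-fold) ended the call. Saraf, an inhibitor of store-operated entry and the most counted gene of the list in both groups, had 698, 581 and 601 CPM in ILC3 and 314 and 286 CPM in CD4 T (adjusted p = 0.0527, edgeR). Orai1 had 269, 153 and 104 CPM in ILC3 and 60.3 and 84.9 CPM in CD4 T (adjusted p = 0.109, edgeR).

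Among other ion pumps, transporters and channels, 1 of 17 tested genes was called higher in ILC3, 4 lower and 12 were not called. Of all genes tested, 6.46% were called higher and 7.21% lower. The median log2 difference of the 17 was -1.07. Atp1b3, a sodium pump beta subunit, was the most counted in both groups, at 277, 226 and 207 CPM in ILC3 and 234 and 307 CPM in CD4 T, and overlapped. Another beta subunit, Atp1b1, had 0.541, 4.36 and 5.32 CPM in ILC3 and 52.6 and 51.5 CPM in CD4 T (log2 -3.94, adjusted p = 0.0317 by edgeR). The proton channel Hvcn1 had 6.39, 9.54 and 6.43 CPM in ILC3, against 44.9 and 17.5 CPM in CD4 T (log2 -2.07, adjusted p = 0.0477 by edgeR). The scramblase Ano6 had 7.97, 7.05 and 3.51 CPM in ILC3, against 43.4 and 18.7 CPM in CD4 T (log2 -2.33, adjusted p = 0.0444 by edgeR). In these 3 lower genes the groups did not overlap. Clcn3, an endosomal chloride exchanger, had 227, 175 and 274 CPM in ILC3 and 71.2 and 51.5 CPM in CD4 T (log2 1.88, adjusted p = 0.019 by edgeR). The calls of these genes were sensitive to single libraries. Atp1b1 lost its call in edgeR without ILC3 replicate 2 (0.0849) or 3 (0.0589) or CD4 T replicate 1 (0.11) or 2 (0.0624). Hvcn1 and Ano6 lost theirs without each ILC3 library (0.0961 to 0.118 and 0.0893 to 0.102) and without CD4 T replicate 1, where the log2 differences were -1.23 (0.265) and -1.59 (0.236). Clcn3 lost its call with library size alone (0.0654) and when ILC3 replicate 1 (0.0642) or 3 (0.0593) was left out.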

How the data were processed

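RNA of sorted cells was made into libraries with the Clontech SMARTer Ultra Low Input kit, version 4, per the labels' protocols. The deposited table holds raw whole-number counts for each gene. The submitters' processing notes name CASAVA 1.8.2, STAR 2.3.0 and the build mm10, and the counting tool, its annotation and strandedness were not given in the sources used here. Of 27179 NCBI gene identifiers, 25275 were matched to a symbol in RefSeq (GRCm38.p6). Exon lengths are unions of GENCODE M21 exons. Promoter sequences are from RefSeq.

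Counts were fitted over the whole table with edgeR 4.0.16 in R 4.3.3: filterByExpr by group, TMM, glmQLFit and glmQLFTest, ILC3 over CD4 T, no covariate, 3 residual degrees of freedom, Benjamini-Hochberg adjustment over 12747 genes. SE is the log2 difference divided by the square root of F. Where a group had 1 to 3 counts of a gene, the ratio of sums has an exact 95% interval, and with 0 counts it is a bound at 3 counts over the group. Both cover counting error only, since amplified reads are not independent molecules. Alternatives were DESeq2 1.42.0, limma-voom (limma 3.58.1), other scalings and filters, a replicate block and leaving out each library. Members and lists were chosen with earlier results of these data known. Named were every member past the filter, untested members with 10 or more counts in a library, called list genes and the list gene with the highest CPM in each group; others were named after their values were seen. Results of 3 genes are not reported here. No 2 libraries agreed within sampling noise.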

Additional observations from a re-analysis of the deposited data

How the results depend on the processing

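Kcnk1 kept its direction and its call under every alternative run. Over the 21 genes and these alternatives, 223 values kept direction and side of the threshold, 17 newly passed, 5 (all Kcnj10) no longer passed and 10 reversed. The number of genes called higher, 1 in the main analysis, was 2 with no count filter, 3 in the DESeq2 test, 2 in limma-voom and 1 to 2 without single libraries. The number called lower, also 1, was 3 with library size alone, with receptor segment genes left out or with no count filter, 2 with the filter of 1 CPM or in limma-voom, 4 in DESeq2 and 0 to 2 without single libraries. Detected genes, 11 at 1 CPM, numbered 12 at 0.5 CPM and 5 at 5 CPM. Reversed log2 differences were those of Kcnk10 in limma-voom (-0.80) and of Kcnmb4 with library size alone (-0.10). Without single libraries, Kcnip2 ranged from -1.82 to 5.79, Kcnip3 from -0.19 to 0.92, Kcnk7 from -3.03 to 6.51 and Kcnmb4 from -0.38 to 2.67. The cause was not tested.

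Across all genes, 824 were called higher and 919 lower, against 1914 and 1858 in DESeq2, 1317 and 1402 in limma-voom, 1250 and 1378 with no count filter, 384 and 1502 with library size alone, and 269 to 1712 and 306 to 960 without single libraries. Replicate numbers are not tied to mice by the labels. Deviations from the group means had correlations of -0.0235 and -0.0338 between same-numbered libraries. The deviations of 2 CD4 T libraries mirror each other, so these values cannot decide whether libraries shared a mouse. With the replicate number as a block, 215 genes were called higher and 305 lower, and of the potassium channel genes 1 higher and 0 lower, with an adjusted p of 0.126 for Kcnj10 in edgeR. Under the block Kcne3 (-6.45), Kcnip3 (-0.16) and Kcnk10 (-2.32) reversed. The block also ended the calls, by edgeR adjusted p, of Clcn3 (0.103), Itpr1 (0.0881), Trpm2 (0.096), Hvcn1 (0.21) and Ano6 (0.156). At this depth a gene with no count may still lie at up to 0.108 to 0.192 CPM, depending on the library.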
